A study of Homo sapiens with 18 samples.

Results

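JUN, JUNB, JUND, FOS, EGR1, IER2, DUSP6, SPRED1, SPRED2 and MCL1 are immediate early genes, ERK feedback genes and an ERK-linked survival gene. They were chosen by name, and all 10 were found among the 13051 genes of a table of transcriptional readthrough in K562 cells, a line from a patient with chronic myeloid leukemia in blast crisis that carries the Bcr-Abl1 kinase. Each gene stands in the table as 1 transcript, 12704 of which matched the GENCODE 44 annotation. Nascent RNA from chromatin was depleted of polyadenylated RNA, given an adapter at its 3′ end and sequenced as PacBio long reads. A readthrough read is one whose 3′ end lies over 100 nt past the annotated end of the gene, so it comes from a polymerase that passed that site on an uncleaved transcript. The 18 libraries fall into 6 groups of 3 that the labels call biological replicates. Untreated cells make up CTRL and also CTRLim, the control for imatinib. KCl 45min cells were shocked osmotically, with 110 mM KCl in the medium over 45 min, and JTE 1h is 1 h of 5 µM JTE-607, an inhibitor of CPSF73, the nuclease that cleaves the 3′ end of pre-mRNA. IM 1h and IM 18h are 1 h and 18 h of 1 µM imatinib, which inhibits Bcr-Abl1. All groups come from K562 cells grown in suspension, so the comparisons hold for 1 leukemia line.

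Bcr-Abl1 signals through RAS, RAF and MEK to the kinase ERK. ERK and its downstream kinases phosphorylate factors that sit on promoters of immediate early genes, which are transcribed within minutes of a stimulus and need no new protein synthesis. Stress kinases, which osmotic shock activates, reach many of the same promoters. Among the genes described here, FOS, JUN, JUNB and JUND encode subunits of the AP-1 transcription factor, EGR1 encodes a zinc finger transcription factor and IER2 a nuclear immediate early protein. DUSP6 is a phosphatase that inactivates ERK, and SPRED1 and SPRED2 block the activation of RAF by RAS, so that these 3 genes feed back on the pathway. MCL1 is a short-lived antiapoptotic protein of the BCL2 family.

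The promoters of EGR1 and of the 3 AP-1 genes whose reads under KCl are described gene by gene are shown first. RefSeq promoters (GRCh38.p14) were at hand for 9 of the 10 genes and not for MCL1. The 250 bases before the transcription start are printed for EGR1 (chr5:138465229-138465478, plus strand), FOS (chr14:75278578-75278827, plus strand), JUN (chr1:58784048-58784297, minus strand) and JUND (chr19:18281623-18281872, minus strand). Capitals mark CArG boxes, the element bound by SRF, and TGACG or its complement CGTCA, the core of the cAMP response element, searched on both strands.
EGR1 promoter: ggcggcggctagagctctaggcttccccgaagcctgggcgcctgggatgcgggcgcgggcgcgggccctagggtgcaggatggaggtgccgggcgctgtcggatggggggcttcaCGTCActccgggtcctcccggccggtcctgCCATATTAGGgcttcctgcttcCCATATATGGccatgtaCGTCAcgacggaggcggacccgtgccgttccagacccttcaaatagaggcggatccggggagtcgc
FOS promoter: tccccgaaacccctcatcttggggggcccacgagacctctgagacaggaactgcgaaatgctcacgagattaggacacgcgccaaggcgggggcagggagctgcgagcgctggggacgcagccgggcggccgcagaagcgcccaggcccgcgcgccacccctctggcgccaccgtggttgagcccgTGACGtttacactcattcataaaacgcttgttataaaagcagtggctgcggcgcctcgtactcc
JUN promoter: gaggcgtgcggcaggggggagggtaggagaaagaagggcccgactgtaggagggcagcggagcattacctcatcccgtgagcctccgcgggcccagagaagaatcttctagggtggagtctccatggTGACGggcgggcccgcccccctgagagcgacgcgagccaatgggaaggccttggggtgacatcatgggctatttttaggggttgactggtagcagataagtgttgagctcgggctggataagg
JUND promoter: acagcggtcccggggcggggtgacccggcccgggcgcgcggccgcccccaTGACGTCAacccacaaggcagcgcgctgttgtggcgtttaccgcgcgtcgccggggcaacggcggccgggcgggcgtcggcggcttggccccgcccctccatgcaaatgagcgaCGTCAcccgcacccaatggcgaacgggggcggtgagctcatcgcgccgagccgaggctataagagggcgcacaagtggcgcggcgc

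EGR1 held 2 CArG boxes, which start 105 and 83 bases upstream of the transcription start. Among the 9 promoters, only that of EGR1 had a CArG box in the window searched. Of 35116 promoter windows of that length, 407 (1.16%) held one. The TGACG or CGTCA core was present in 6 of the 9 promoters (EGR1, FOS, JUN, JUNB, JUND and IER2) and in 21.2% of all windows. In JUND the matches at 200 and 197 bases overlap and form TGACGTCA. DUSP6, SPRED1 and SPRED2 held neither in these windows. TGACTCA or TGAGTCA, the consensus AP-1 site, was in 0 of the 9 promoters and in 4.20% of all windows. Only exact matches were counted, and variant AP-1 sites were not searched. Sequence further upstream was not searched either. The absence of a match, such as a CArG box in FOS, therefore holds for these windows only.

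Readthrough is counted from the annotated transcript end, so the last 30 bases of the 4 genes whose reads are plotted are shown as well, with the poly(A) signals AATAAA and ATTAAA in capitals (transcript strand, GENCODE 44 on GRCh38).
EGR1 end, chr5:138469274-138469303: cttccaaaaaATTAAAacgaaAATAAAgta
FOS end, chr14:75282201-75282230: tgtcAATAAAagcatttaagttgaatgcga
JUN end, chr1:58780791-58780820: cttgtcacAATAAAtgtattcaaataccaa
MCL1 end, chr1:150574551-150574580: aaaaAATAAAtcttttattcaaatacaggg

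Within the last 40 bases AATAAA was present in 7 of the 10 genes and in 58.8% of all 12704 transcripts. JUNB, JUND and SPRED2 held neither form there. The AATAAA of EGR1 starts 9 bases from the annotated end, and an ATTAAA precedes it. In the other 6 genes with AATAAA, that signal starts 22 to 28 bases from the end. In the 4000 bases past the end no other annotated gene lies at 8 of the 10 genes. Past JUNB lie HOOK2 and PRDX2 on the opposite strand and a lncRNA on its own strand, and past IER2 lies a pseudogene, RPL12P42, on the opposite strand. Most of the genes are compact, with a median span of 4163 bases against 22590 for all transcripts. JUN, JUNB and JUND have 1 exon each, as do 3.54% of all transcripts.

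Together the 10 genes held 517 of 447434 readthrough reads, or 0.116%. MCL1 had 192 reads and JUN had 128, and these were the only genes of the group with reads in all 18 libraries. EGR1 had 81 reads, of which 59 came from the KCl libraries, and SPRED2 had 44. The other 6 genes had under 30 reads each and were too sparse to test. FOS and IER2 had 21 reads each, JUND 17, SPRED1 11, JUNB 2 and DUSP6 0. For DUSP6 the 0 reads in the 3566937 library reads of IM 18h, the deepest group, allow a level of up to 0.841 readthrough reads per 1000000 library reads (RPM), at 3 counts, and those of CTRL allow up to 2.91 RPM. The median gene of the table had 10 reads.

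**Figure D1:**
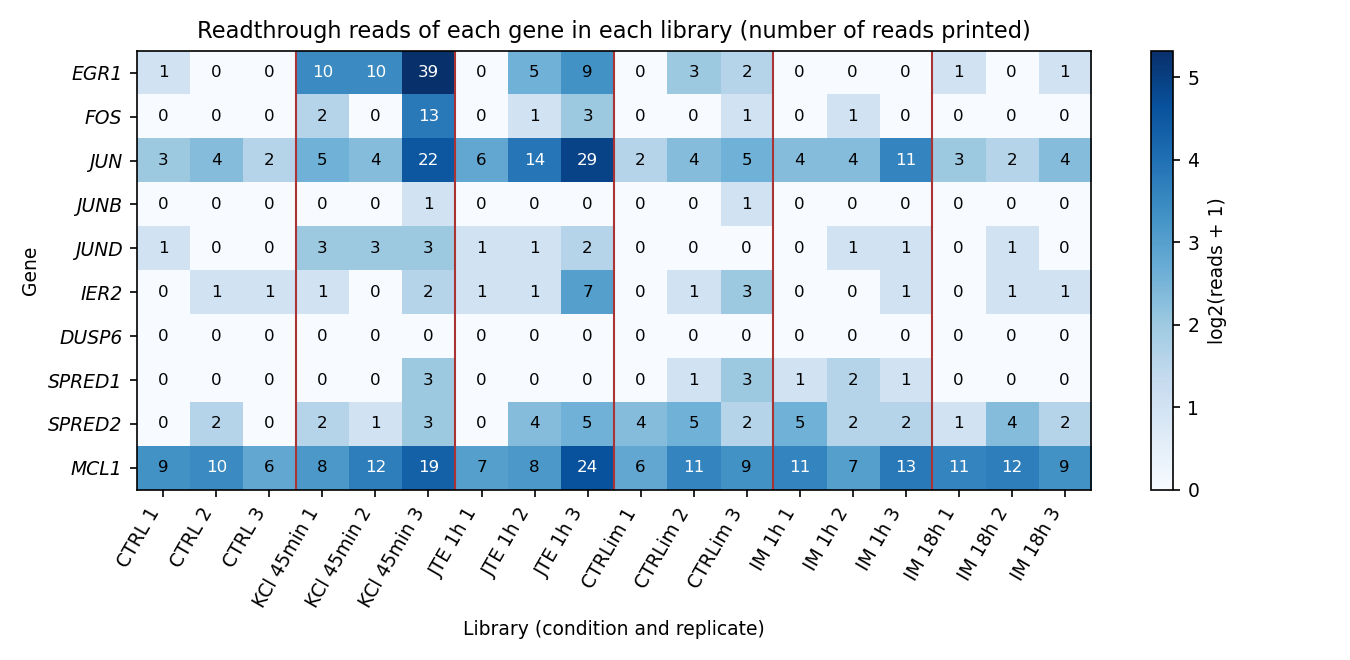
Number of readthrough reads of each gene (rows) in each of the 18 libraries (columns, in groups of 3 between the red lines), printed in the cells and shaded by log2(reads + 1). EGR1 reads gather in the 3 KCl libraries (10, 10 and 39), MCL1 and JUN are read in every library, and DUSP6 is at 0 throughout.

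Libraries held 229855 to 1349556 reads after the filters of the authors, 2.15 to 5.40% of them readthrough reads. That share was 3.32 to 3.55% in CTRL, 2.15 to 2.68% in KCl, and 3.06% in JTE 1h replicate 1 against 5.05 and 5.40% in the other 2 JTE libraries. The libraries come in 2 sets, since 40.5 to 44.1% of reads mapped in CTRL, KCl and JTE 1h and 84.3 to 91.6% in CTRLim, IM 1h and IM 18h. Treatments were therefore compared within a set. Median read lengths given by the study differ further within the set of lower mapping. Reads were shorter in CTRL replicates 1 and 2, KCl replicate 1 and JTE 1h replicate 1 than in the other libraries of that set. Read length was thus not balanced between CTRL and its treatments, and its effect on the counts was not tested. Counts of IM 1h replicates 1 and 2, 1 and 3, and of CTRLim replicates 2 and 3 agreed within sampling noise (chi-square per degree of freedom 1.01, 1.04 and 1.11), and they were kept as separate libraries because their labels and totals differ. Of 11 erythroid markers of K562 cells, 10 were in the table and 8 had at least 30 reads, with HBG1 highest at 4159 and a summed level of 71.1 to 1277 RPM per library. Of 10 markers of other cell types, 4 were in the table, with a summed level of 0 to 5.23 RPM, the highest being CD3D with 13 reads in all libraries.

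Hyperosmotic shock raised readthrough reads of EGR1. It was at 24.4, 31.9 and 36.9 RPM in the 3 KCl libraries and at 2.77, 0 and 0 RPM in CTRL. The groups did not overlap, and the lowest KCl library stood far above the highest control. The KCl mean was 31.1 ± 6.34 RPM (SD, n = 3), and 59 reads stood against 1, a ratio per library read of 34.1 with a 95% counting interval of 5.89 to 1371. In edgeR's quasi-likelihood test EGR1 rose by a log2 fold change of 4.69 ± 0.91 (SE, adjusted p = 7.42e-05). Of the 378 genes tested, 25.1% were called, and the median log2 fold change was −0.39. EGR1 reached the minimum of 30 reads through its KCl libraries, so a place among the tested genes is not given. Readthrough reads of bulk cells cannot tell apart a change in transcription, in cleavage or in the cells that express the gene. EGR1 stayed called under all 13 alternatives in which it could be tested. It entered them through its KCl reads, except with no minimum of reads (edgeR, adjusted p = 0.000179). They are therefore not separate support. Its log2 fold change was 4.10 without CTRL replicate 2. Without CTRL replicate 1, which held the 1 CTRL read, the control had 0 reads and no fold is given. Without KCl replicate 3 it fell under the minimum of 30 reads and was not tested.

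FOS, whose protein pairs with JUN in AP-1, was at 4.87, 0 and 12.3 RPM under KCl and had no read in CTRL. The groups overlap because KCl replicate 2 had no read, and replicate 3 gave 13 of the 15 reads. Against the floor of 3 reads over the CTRL group, the pooled level was at least 2.89-fold higher. FOS had too few reads for the test. With a minimum of 10 reads it passed in edgeR (adjusted p = 0.042), and with no minimum it did not (adjusted p = 0.159). FOS reached the minimum of 10 reads through its KCl libraries alone, so that call adds no support.

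JUN was at 12.2, 12.7 and 20.8 RPM under KCl and at 8.32, 9.75 and 7.73 RPM in CTRL. All KCl libraries were above all controls, yet the log2 fold change of 0.89 ± 0.65 did not pass (edgeR, adjusted p = 0.356). JUND, an AP-1 subunit that is usually expressed constitutively, was at 7.31, 9.56 and 2.84 RPM under KCl, on 3 reads each, and at 2.77, 0 and 0 RPM in CTRL. Its lowest KCl library lay just above the highest control, and the ratio of 5.21 had a counting interval of 0.721 to 228, which includes no change. EGR1, JUN and JUND were thus the 3 of 10 genes whose KCl libraries all lay above CTRL, and 35.7% of the 378 genes tested had groups that did not overlap, in either direction.

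The remaining genes gave no such separation under KCl. MCL1 was at 19.5, 38.2 and 18.0 RPM against 25.0, 24.4 and 23.2 RPM in CTRL, with a log2 fold change of −0.03 ± 0.51 (edgeR, adjusted p = 0.975) whose sign changed with the scaling. IER2 had 3 reads under KCl and 2 in CTRL, SPRED2 had 6 and 2, SPRED1 3 and 0, and JUNB 1 and 0.

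**Figure D2:**
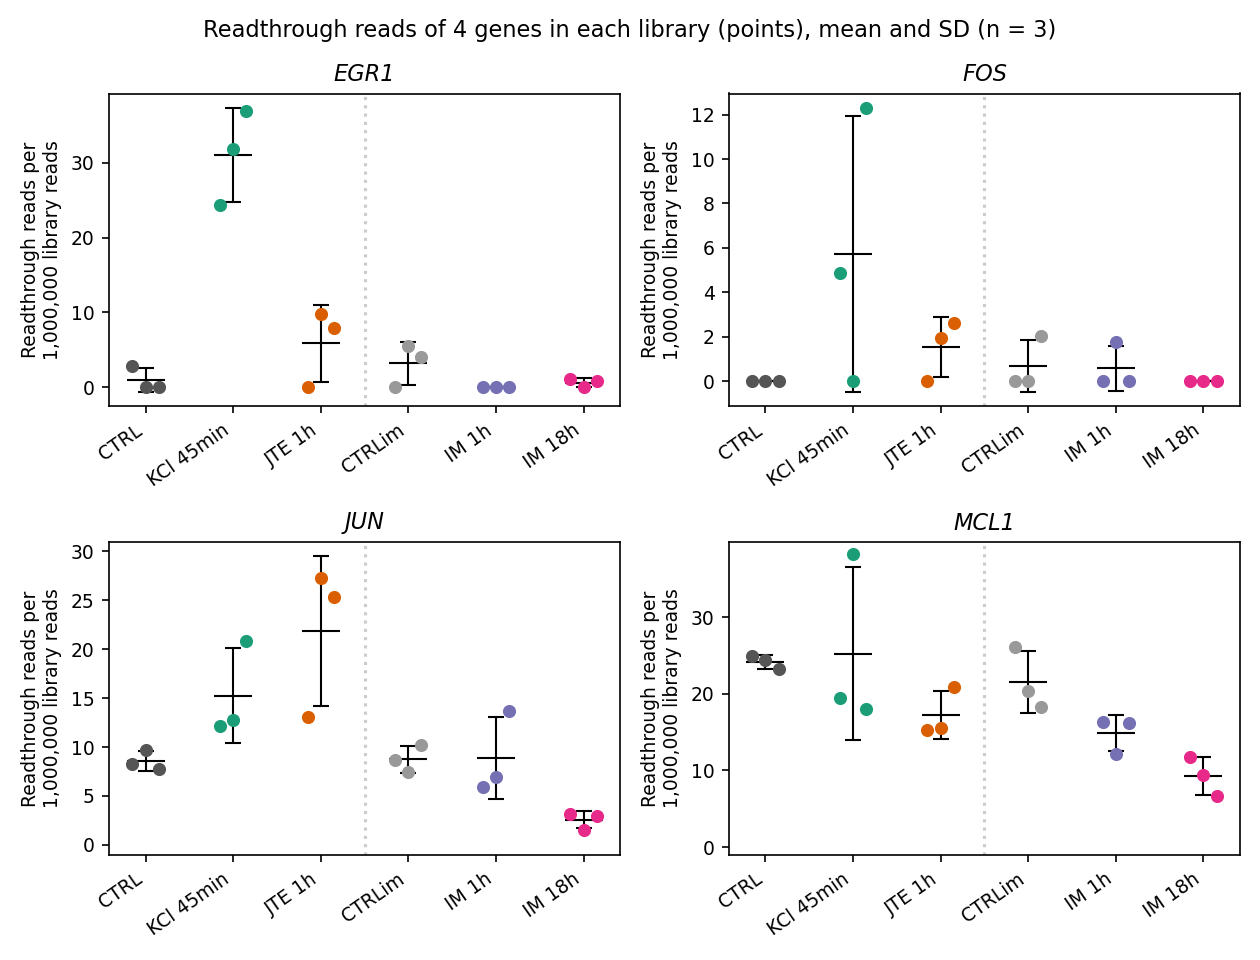
Readthrough reads per 1000000 library reads (vertical axes, linear) of EGR1, FOS, JUN and MCL1 in each library (points), with the mean (long bar) and SD (n = 3) of each condition. The dotted line parts the 2 library sets. EGR1 is at 24.4 to 36.9 RPM under KCl and at most 9.72 RPM in any other library, and MCL1 and JUN are lowest in IM 18h.

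JTE-607, which by the study blocks cleavage at a part of the genes only, was compared with CTRL. Whether cleavage of these 10 genes was blocked was not measured. JUN was at 13.1, 27.2 and 25.3 RPM with JTE-607, above the 7.73 to 9.75 RPM of CTRL in every library. On 49 reads against 9, the ratio was 2.64 (95% counting interval 1.28 to 6.12). The log2 fold change of 1.33 ± 0.65, beside a median of 0.49 over the 969 genes tested, did not pass (edgeR, adjusted p = 0.445, unadjusted p = 0.0493). Without JTE 1h replicate 1, the library with the low readthrough share and short reads, it was 1.55 with an adjusted p of 0.0752.

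MCL1 was at 15.2, 15.6 and 20.9 RPM with JTE-607 against 23.2 to 25.0 RPM in CTRL. The groups did not overlap, but the log2 fold change of −0.46 ± 0.58 did not pass (edgeR, adjusted p = 0.810). JUN and MCL1 were the 2 genes of the group without overlap, and 13.8% of all genes tested showed none. EGR1 was at 0, 9.72 and 7.84 RPM, and its 14 reads against 1 gave a ratio of 6.80 with a counting interval of 1.03 to 287. IER2, which had 1, 1 and 7 reads with JTE-607, and SPRED2, which had 0, 4 and 5, overlapped their controls. JUND had 4 reads, FOS 4, and SPRED1, JUNB and DUSP6 had none.

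None of the group was called with JTE-607, in edgeR or in DESeq2, and 1 member, JUN, had an unadjusted p under 0.05. Over all genes 0.103% were called, which is 1 gene, and 108 of the 969 had an unadjusted p under 0.05.

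After 1 h of imatinib JUN was near its control. It was at 5.94, 6.98 and 13.7 RPM, around the 8.70, 7.41 and 10.2 RPM of CTRLim, with a log2 fold change of 0.08 ± 0.56 (edgeR, adjusted p = 0.949) that turned to −0.10 with TMM scaling. EGR1 had no read in the 3 IM 1h libraries and 0, 3 and 2 reads in CTRLim. Against the floor of 3 reads over the IM 1h group, which is 1.46 RPM, its level was at least 2.71-fold lower, and the groups overlap because CTRLim replicate 1 also had none. MCL1 was at 16.3, 12.2 and 16.2 RPM, under the 26.1, 20.4 and 18.3 RPM of CTRLim in every library, and its log2 fold change was −0.44 ± 0.40 (edgeR, adjusted p = 0.668).

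SPRED2, a RAF inhibitor of the feedback arm, had 5, 2 and 2 reads after 1 h against 4, 5 and 2 in CTRLim. SPRED1 had 1, 2 and 1 reads against 0, 1 and 3. A difference was not detectable at this depth for either gene, and DUSP6 had no read. In this comparison 0 of the 2 members tested were called, by edgeR or DESeq2 or at an unadjusted p under 0.05, where 1.52% of the 988 genes tested were called. MCL1 was the 1 of 10 genes without overlap, beside 18.4% of the 988 genes tested, which include 2 of the 10.

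After 18 h of imatinib MCL1 was lower. Its level was 11.7, 9.39 and 6.67 RPM, or 9.26 ± 2.52 RPM (SD, n = 3), against 21.6 ± 4.05 RPM in CTRLim, with no overlap. It fell by a log2 fold change of −1.18 ± 0.41 in edgeR's quasi-likelihood test (adjusted p = 0.0436), beside a median of −0.01 over the 1386 genes tested, of which 14.1% were called. This call was close to the threshold. It was kept in 4 of 17 alternatives, and adjusted p ranged from 0.0238 to 0.267 over them. Within the library set it was kept with the replicate block (edgeR, adjusted p = 0.0396) and without IM 18h replicate 1 (0.0238). The call was also kept with CTRL of the other set as control (0.0254) or added to CTRLim (0.0425). It was lost without any 1 of CTRLim replicates 1 to 3 or IM 18h replicates 2 and 3 (adjusted p 0.0737 to 0.140), with TMM scaling (adjusted p = 0.0656) and with CTRLim replicates 2 and 3 summed (adjusted p = 0.0651), and the log2 fold change was between −1.41 and −0.98 throughout.

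JUN was at 3.19, 1.57 and 2.96 RPM after 18 h, under every CTRLim library and also under every IM 1h library. On 9 reads against 11 in the much shallower CTRLim, the ratio was 0.290 (95% counting interval 0.106 to 0.769). The 20 reads of that comparison were under the minimum for the test. With a minimum of 10 reads the log2 fold change against CTRLim was −1.73 ± 0.70 (edgeR, adjusted p = 0.147), and against IM 1h it was −1.81 ± 0.59 (edgeR, adjusted p = 0.0373), which passed. With no minimum the latter had an adjusted p of 0.0914. Against IM 1h, JUN reached the minimum of 10 reads through its IM 1h libraries (19 reads, against 9 in IM 18h).

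SPRED2 was at 1.06, 3.13 and 1.48 RPM after 18 h and at 17.4, 9.26 and 4.06 RPM in CTRLim. No library overlapped, the ratio was 0.225 (95% counting interval 0.0740 to 0.636), and with a minimum of 10 reads it did not pass (edgeR, adjusted p = 0.0733). SPRED1 had no read after 18 h and 4 in CTRLim, and CTRLim replicate 1 had none either. Its pooled CTRLim level was 3.77-fold above the floor of 3 reads over the IM 18h group. The 95% counting intervals overlap, with 0.863 to 8.11 RPM in CTRLim and 0 to 1.03 RPM in IM 18h. EGR1 had 1, 0 and 1 reads after 18 h, a ratio of 0.142 (95% counting interval 0.0135 to 0.865), with overlap. JUN, SPRED2 and MCL1 were the 3 of 10 genes below CTRLim without overlap, and 31.7% of all genes tested did not overlap.

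Between the 2 imatinib times MCL1 was lower at 18 h in every library, with a log2 fold change of −0.74 ± 0.40 that did not pass (edgeR, adjusted p = 0.198). The median over the 1720 genes tested was −0.30, and 18.3% were called. JUN, SPRED1 and MCL1 did not overlap between the times, as was the case for 34.8% of all genes tested. Summed over the 10 genes, the level was 46.3 to 52.8 RPM in CTRLim, 29.7 to 36.1 RPM in IM 1h and 12.6 to 17.0 RPM in IM 18h. In the other set it was 34.8 to 41.4 RPM in CTRL, 75.5 to 99.5 RPM under KCl, and 32.6, 66.1 and 68.8 RPM in JTE 1h, the lowest in replicate 1. JUN and MCL1 make up most of the sum in the imatinib set and EGR1 has the highest mean under KCl.

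**Figure D3:**
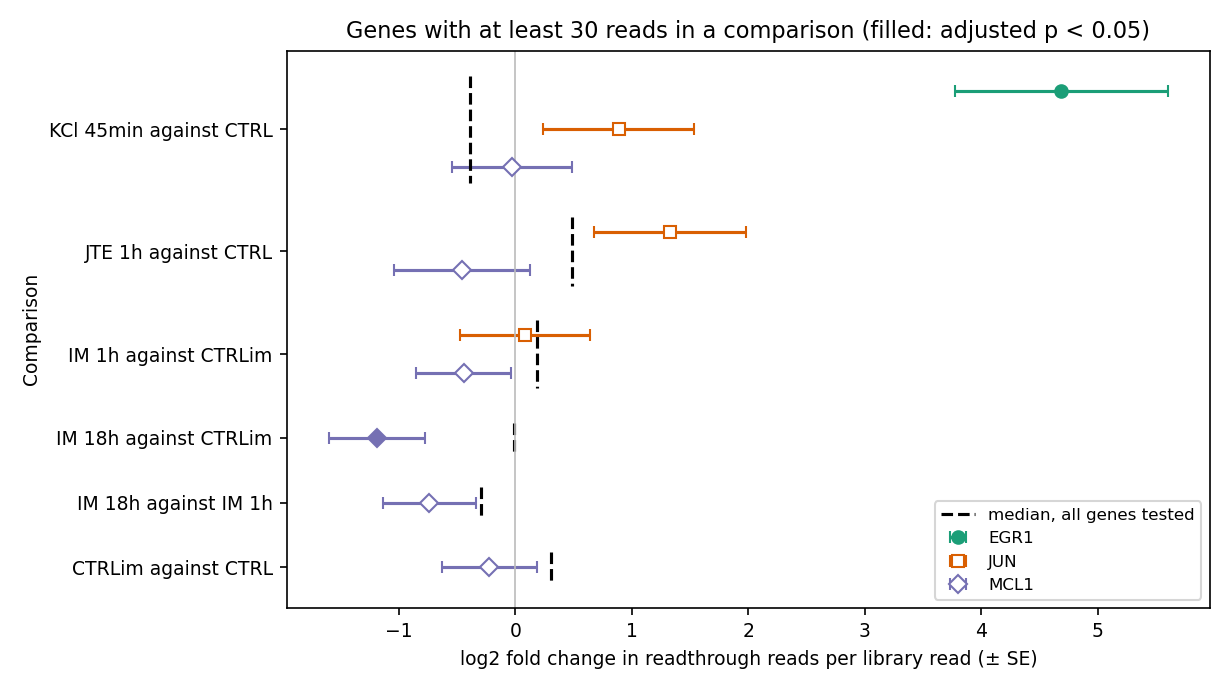
log2 fold change in readthrough reads per library read (horizontal axis, with SE) of EGR1, JUN and MCL1 in each comparison (vertical axis) where the gene had at least 30 reads, with filled symbols for an adjusted p under 0.05 in edgeR and dashed lines for the median of all genes tested. EGR1 under KCl (4.69) and MCL1 at 18 h of imatinib (−1.18) are the filled symbols.

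The 2 untreated groups bear on comparisons across sets. MCL1, the member with enough reads, differed between CTRLim and CTRL by a log2 value of −0.22 ± 0.41 (edgeR, adjusted p = 0.753). Its groups overlapped. Of the 472 genes tested, 32.2% had groups that did not overlap and 10.6% were called. None of the other members separated the groups either. They were too sparse for the test, so these shares are no background for them. EGR1 had 5 reads in CTRLim and 1 in CTRL, and SPRED2 had 11 and 2 (ratio 4.49, 95% counting interval 0.979 to 41.7). When each treatment was set against its own control, the KCl effect on EGR1 differed from the IM 1h effect (edgeR, adjusted p = 6.37e-05), with 16.3% of 1640 genes called. EGR1 entered this test through its 59 KCl reads, and the imatinib arm sets 0 reads against 5, so the fitted size of the difference is not given. The JUN effect of KCl exceeded that of IM 1h by a log2 value of 0.85 ± 0.88 (adjusted p = 0.563). For JTE 1h against IM 1h the differences of JUN (1.28 ± 0.90), SPRED2 (2.02 ± 1.34) and MCL1 (0.03 ± 0.68) had adjusted p from 0.753 to 1.00, where 0.23% of 2175 genes were called.

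Ordered by mean level, EGR1 ran from KCl (31.1 RPM) over JTE 1h (5.86), CTRLim (3.21), CTRL (0.924) and IM 18h (0.602) to IM 1h (0). KCl did not overlap the next condition, and each later neighbour in that order overlapped the one after it. JUN ran from JTE 1h (21.9 RPM) over KCl (15.3), IM 1h (8.87), CTRLim (8.75) and CTRL (8.60) to IM 18h (2.57). IM 18h stood apart below CTRL, and all other neighbours overlapped. MCL1 ran from KCl (25.2 RPM) over CTRL (24.2), CTRLim (21.6), JTE 1h (17.2) and IM 1h (14.9) to IM 18h (9.26), and only the last step was without overlap. These levels set libraries of both sets side by side.

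Among 911 genes with at least 100 reads, those whose log2 RPM followed JUN most closely over the 18 libraries were TRIM73 (Pearson r = 0.830), TMA7B (r = 0.830) and AKNA (r = 0.769). For AKNA the mean was 22.8 RPM in JTE 1h and 0.709 RPM in IM 18h, its highest and lowest conditions, as they were for JUN. FTL (r = 0.819), which encodes ferritin light chain, and the genes ENSG00000255872 (r = 0.721) and ENSG00000251184 (r = 0.702) followed MCL1 most closely. FTL was at 185 RPM under KCl and 27.4 RPM in IM 18h, which were also the extremes of MCL1. The points share depth, library set and condition, so these correlations are a description.

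Genes of the same pathways were read from 4 lists. Of 28 other immediate early genes in the table, 2 had enough reads under KCl and both were called, in opposite directions, where 25.1% of all genes were called. MYC, a growth-promoting transcription factor, had 3, 0 and 0 reads under KCl against 23, 22 and 10 in CTRL. It fell by a log2 value of −4.68 ± 0.74 (edgeR, adjusted p = 3.58e-06), and the ratio of pooled reads was 0.0316 (95% counting interval 0.00631 to 0.0972). It stayed called in all 14 alternatives, with −3.58 without KCl replicate 3. No fold is given without KCl replicate 1, which held all 3 reads. BTG1, an antiproliferative gene, had 5, 10 and 25 reads against 0, 6 and 0 and rose by 1.93 ± 0.74 (adjusted p = 0.0442). The BTG1 call held in 8 of 13 alternatives. It was lost in DESeq2 (adjusted p = 0.0698), with no minimum of reads (0.183), and without CTRL replicate 1 (0.245), CTRL replicate 3 (0.160) or KCl replicate 2 (0.229).

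At 18 h of imatinib 1 of 6 tested immediate early genes was called against CTRLim, a share close to the 14.1% of all genes. MYC fell from 67.0 ± 13.7 to 27.3 ± 2.13 RPM (SD, n = 3), a log2 value of −1.23 ± 0.28 (edgeR, adjusted p = 0.00147), and was called in all 17 alternatives. Against IM 1h, 2 of the 6 rose, where 18.3% of all genes were called in either direction. KLF10, a TGFβ-inducible repressor, went from 3.65 ± 2.92 to 18.2 ± 3.58 RPM (2.35 ± 0.50, edgeR, adjusted p = 0.000175), and BTG2, a p53-inducible antiproliferative gene, from 1.82 ± 1.60 to 8.81 ± 3.47 RPM (2.05 ± 0.65, adjusted p = 0.0178). KLF10 and BTG2 reached the minimum of 30 reads through their IM 18h libraries (64 and 30 reads, against 7 and 4 in IM 1h). KLF10 was called in all 15 alternatives, with a log2 value of 2.01 to 3.07. BTG2 was no longer called without IM 1h replicate 2 (adjusted p = 0.116) or replicate 3 (0.0864), with no minimum of reads (0.0946) or with all 18 libraries in one fit (0.0615), and DESeq2 gave it no adjusted p. The medians of the 6 genes were 0.52 against CTRLim and −0.16 against IM 1h, beside −0.01 and −0.30 for all genes. With JTE-607 0 of 4 and after 1 h of imatinib 0 of 4 genes of the list were called.

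Other feedback genes of the pathway were sparse too. Of 17 ERK feedback and output genes in the table, only DUSP1, a phosphatase of JNK, p38 and ERK, had enough reads in a comparison of 2 groups. It was at 18.8 ± 4.31 RPM after 18 h of imatinib against 7.36 ± 4.22 RPM in CTRLim (log2 value 1.25 ± 0.48, edgeR, adjusted p = 0.0728) and did not pass, though it did in 6 of 17 alternatives, TMM scaling among them (adjusted p = 0.0447). Against IM 1h the log2 value was 0.94 ± 0.39 (edgeR, adjusted p = 0.0832), and 3 of 15 alternatives passed, again with TMM scaling (adjusted p = 0.0229). Of the RAS to ERK cascade, 26 genes were in the table. CRKL, an adaptor and substrate of Bcr-Abl1, had 0, 0 and 6 reads under KCl against 13, 7 and 6 in CTRL and fell by −2.92 ± 0.72 (edgeR, adjusted p = 0.00158), and in DESeq2 the log2 value was −2.70 but was not called (adjusted p = 0.0662). It was the 1 gene of the cascade with enough reads there, which it reached through CTRL (26 reads, against 6 under KCl). Of the cascade, 0 of 3 passed at 18 h of imatinib against CTRLim, 0 of 2 at 1 h and 0 of 4 with JTE-607. The shares of all genes called there were 14.1%, 1.52% and 0.103%, so that counts of 0 among so few genes say little about the cascade.

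In the BCL2 family of MCL1, 12 other genes were in the table and at most 3 had enough reads. BID, a proapoptotic member, fell from IM 1h to IM 18h by −1.43 ± 0.45 (edgeR, adjusted p = 0.0168), and its level was 14.3 ± 10.1 RPM at 1 h and 5.36 ± 1.67 RPM at 18 h. BID reached the minimum of 30 reads through its IM 1h libraries (30 reads, against 19 in IM 18h). The call held in 7 of 15 alternatives. Without IM 1h replicate 1, which held 17 of the 30 BID reads at 1 h, the log2 value was −0.79 (adjusted p = 0.396). It was also lost without IM 1h replicate 3 (0.0631) or IM 18h replicate 3 (0.0681), in DESeq2 (0.465), with TMM scaling (0.0859), with total readthrough reads as library size (0.0678), with no minimum (0.0624) and with all 18 libraries in one fit (0.0871). BCL2L11, which encodes the proapoptotic protein BIM, was at 8.22 ± 1.61 RPM after 18 h against 1.91 ± 1.85 RPM in CTRLim (log2 value 1.76 ± 0.75, adjusted p = 0.112) and did not pass.

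**Figure D4:**
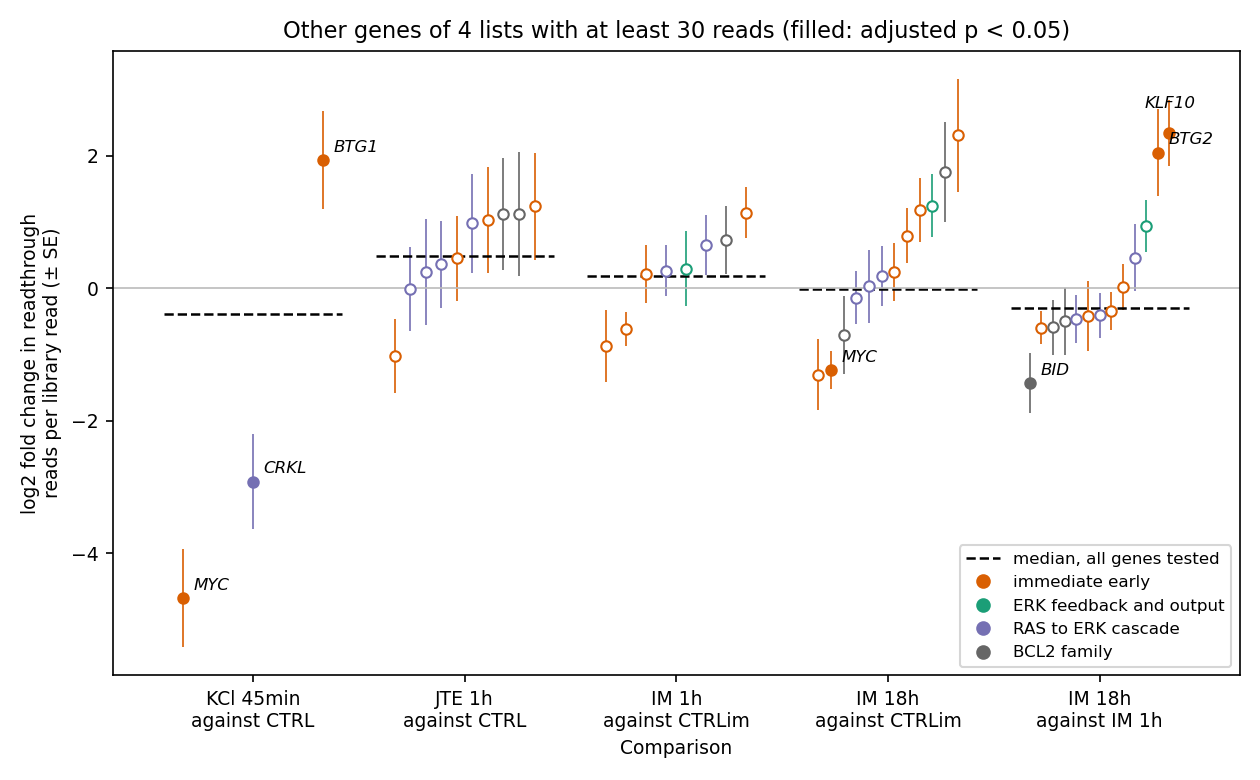
log2 fold change in readthrough reads per library read (vertical axis, with SE) of genes from the 4 lists with at least 30 reads in a comparison (horizontal axis). Filled symbols passed in edgeR and are named, and dashed lines give the median of all genes tested. MYC (−4.68) and CRKL (−2.92) fell and BTG1 (1.93) rose under KCl.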

How the data were processed

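Nascent RNA of K562 cells was measured in 18 PacBio libraries. The authors deposited raw counts, 1 per readthrough read, on 1 transcript per gene. Per the labels and the study's methods, adapters were removed with cutadapt, reads were mapped with minimap2 to GRCh38.p14 and duplicates were removed by molecular identifier. Polyadenylated reads, reads without a unique place and splicing intermediates were taken out. Counts were neither normalized nor pooled. Whether counting used strand is not given in the sources used here, so reads of an antisense neighbour cannot be told apart. Long fragments were selected, which can lose short transcripts.

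Identifiers were looked up in GENCODE 44, where 347 had no match. Library sizes were the reads left after the filters in the study's mapping statistics. Levels are readthrough reads per 1000000 of them and mix transcription with cleavage. Tests used edgeR 4.0.16 (glmQLFit and glmQLFTest, R 4.3.3), with only the compared libraries in the fit, on genes that had 30 or more reads there, with Benjamini-Hochberg adjustment over all genes tested and an adjusted p under 0.05 as call. The SE of an edgeR log2 fold change was derived from its size and the F statistic of the test, so it is unstable near 0. DESeq2 1.42.0 was an alternative. On simulated counts of KCl against CTRL (378 genes, 200 changed by a log2 value of 2) edgeR called 176 of the changed genes (88%) and 8 of the others. For JTE 1h against CTRL (969 genes, 200 changed) it called 156 (78%) and 6. The spread between simulated replicates was a fixed setting and was not estimated from these libraries. These shares therefore check the fit and do not give its power on the real counts. Ratios of pooled reads carry exact 95% conditional intervals, and intervals and floors cover counting error only. Replicates are labelled biological, and the study describes them as independent experiments. Replicate numbers did not pair the samples and were not used as a block. Read length was not a term in any fit.

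All 10 genes are named. From the other lists, at most the 4 called genes with the smallest adjusted p per comparison are named, and DUSP1 and BCL2L11 were added after their values were seen. For JUN and MCL1, the 3 genes with the highest Pearson r (0.5 reads added before log2) are given. The genes and lists were chosen with earlier results of these data known. Alternatives changed the scaling, the library size, the minimum of reads, the tool, the libraries in the fit and the control, and summing close libraries was added after the data were seen. Promoter sequences are from RefSeq (GRCh38.p14). Sums used Python 3.11.15, pandas 2.3.3, numpy 2.4.6 and scipy 1.17.1.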

Additional observations from a re-analysis of the deposited data

Results flagged for a closer look

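The response of EGR1 to KCl differed from that to 1 h of imatinib in a test of the difference (edgeR, adjusted p = 6.37e-05), with reads in 3 of 3 KCl libraries and in 0 of 3 IM 1h libraries. EGR1 entered that test through its KCl reads, and the imatinib arm rests on 0 reads against 5 in CTRLim. JUN was above CTRL in 3 of 3 libraries with JTE-607 (ratio 2.64) and with KCl (ratio 1.99), and under CTRLim in 3 of 3 libraries after 18 h of imatinib (ratio 0.290). The difference between these JUN responses was not tested. Groups of 3 are too small for a check on outlying libraries, so none was made.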

How the results depend on the processing

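Of 257 alternative values over 16 tests of members, 227 kept direction and side of the threshold, 13 lost the call, all of MCL1 at 18 h of imatinib, and 17 changed sign, all of them uncalled. The number of members called at 18 h of imatinib against CTRLim was 1 and became 0 with TMM scaling, total readthrough reads or mapped reads as library size, a minimum of 10 reads or none, DESeq2, all 18 libraries in one fit, or close library pairs summed, and 0 to 1 when a library was left out. A minimum of 10 reads gave 1 call among 3 members tested at 18 h against 1 h of imatinib (JUN). Under KCl it gave 2 among 5 (EGR1 and FOS). The share of all genes called at that minimum is not given, so these counts have no background beside them. In these calls each gene reached the minimum through the group where it was higher. Leaving out a library gave 0 to 1 calls under KCl and for the KCl effect minus the IM 1h effect, 0 being without KCl replicate 3, where EGR1 is under 30 reads. JUN at 1 h of imatinib had a log2 fold change of −0.10 with TMM, −0.069 with total readthrough reads and −0.12 with DESeq2. MCL1 under KCl was 0.40 with TMM, 0.45 with total readthrough reads, 0.038 with mapped reads, 0.39 with DESeq2 and 0.0086 with the replicate block, and −0.38 to 0.21 with a library left out. MCL1 for the JTE 1h effect minus the IM 1h effect was −0.15, −0.26 and −0.17 with TMM, total readthrough reads and DESeq2, and −0.18 to 0.13 with a library left out. The causes were not tested. With the replicate number as a block, each count of called members was as before, including 1 for MCL1 (log2 fold change −1.22, adjusted p = 0.0396). Correlations of deviations between same-numbered libraries ranged from −0.213 to 0.301, and in no comparison did every library correlate best with its own number. TMM moved the median of all genes under KCl from −0.39 to 0.05 and with JTE-607 from 0.49 to 0.09. Depth limits the sparse genes: with 3 counts as floor, CTRL cannot show a level under 2.91 RPM.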
